A study of Homo sapiens with 6 samples.

Results

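HOX genes encode homeodomain transcription factors that give cells their position along the head-to-tail axis, and they lie in 4 clusters called HOXA, HOXB, HOXC and HOXD. The members were chosen by name, as every symbol of the platform annotation made of HOXA, HOXB, HOXC or HOXD and a number, read from probe sets that name 1 gene. This gave 38 of the 18656 genes measured, with 10 members in HOXA, 10 in HOXB, 9 in HOXC and 9 in HOXD, on 158 probe sets. They were measured in AGS, an established human gastric adenocarcinoma line, on 3 arrays of cells given an anti-miR inhibitor of miR-25-3p and 3 arrays of cells given non-targeting control RNA. Both groups were transfected with oligofectamine, again after 24 h, and harvested 48 h after the first transfection. Each array was made from 500 ng of total RNA, and the labels call the 3 samples of a group biological replicates of this 1 line without saying how the cultures were kept apart. The comparison asked which transcripts differ when miR-25-3p is inhibited.

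Genes within a cluster are numbered by paralog group, and low numbers act toward the head and high numbers toward the tail. In development the clusters open in that order, Polycomb proteins keep silent HOX genes silent, Trithorax proteins keep active ones active, and retinoic acid is a known inducer. HOX proteins bind DNA together with the TALE homeodomain proteins PBX and MEIS. Adult gut epithelium keeps a regional HOX pattern, and CDX proteins are known regulators of HOX genes in the intestine.

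The clusters also carry microRNA genes of their own, and their sequences are shown beside the inhibited microRNA because a seed, the bases 2 to 8 that pair with messages, decides which messages a microRNA reads. The seed is in capitals, and the sequences are RefSeq's on GRCh38.p14.
miR-25-3p: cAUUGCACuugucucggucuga
miR-10a-5p: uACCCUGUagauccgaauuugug
miR-196a-5p: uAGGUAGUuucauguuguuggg
miR-196b-5p: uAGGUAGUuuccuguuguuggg
miR-615-3p: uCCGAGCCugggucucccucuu
miR-25-3p lies at chr7:100093571-100093592 on the minus strand, outside the HOXA cluster. The miR-10a-5p sequence is at chr17:48579904-48579926 on the minus strand, miR-196b-5p at chr7:27169528-27169549 on the minus strand and miR-615-3p at chr12:54034010-54034031 on the plus strand. The mature miR-196a-5p is given at chr17:48632532-48632553 on the minus strand and again at chr12:53991762-53991783 on the plus strand. The miR-196 forms share 1 seed, and none of these HOX-cluster microRNAs has the seed of miR-25-3p. Of 24 noncoding HOX-cluster genes listed for the comparison, including HOTAIR, HOTTIP and these microRNA genes, 0 had a probe set naming that gene alone, so they were not analysed here.

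Most HOX genes were dim in AGS, and none differed between inhibitor and control arrays by the adjusted test. Levels below are log2 brightness averaged over a gene's probe sets. Brightness depends on each probe as well as on the message, is not scaled by transcript length, and orders genes only roughly. In control arrays 35 of 38 members lay below the median of all genes (5.77) and 13 below the lower quartile (4.02). The 3 above the median were HOXB9, HOXB6 and HOXC13, and only HOXB9 and HOXB6 passed the upper quartile (7.49). The median over members was 4.43 in control arrays and 4.51 in inhibitor arrays, but these medians need not fall on the same genes. The median of the members' own differences, inhibitor minus control, was -0.043.

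**Figure D1:**
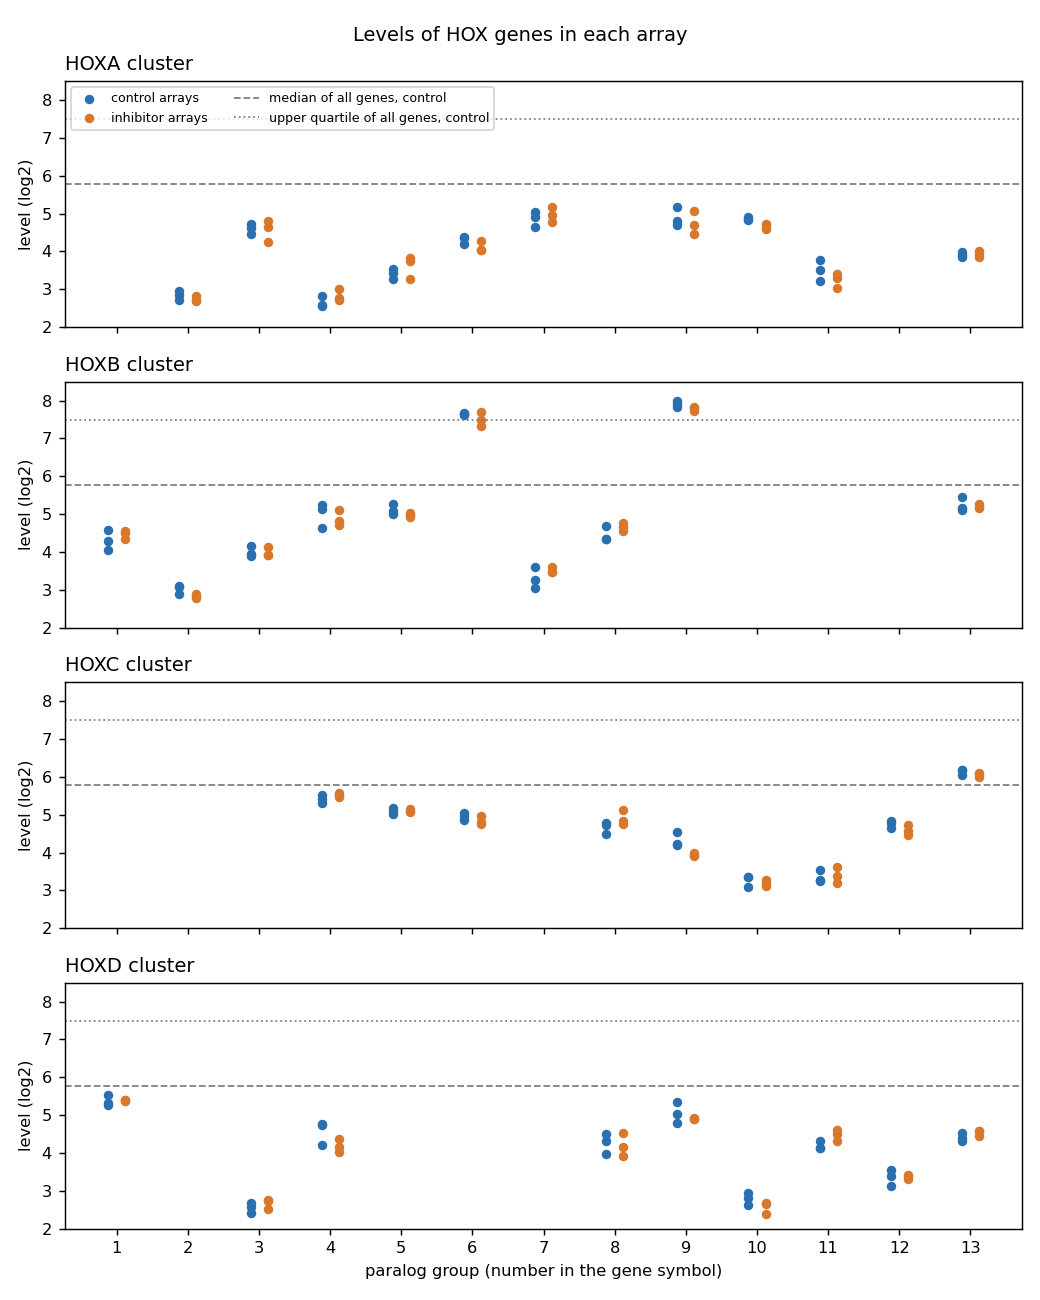
Log2 level of each HOX gene in the 3 control arrays (blue) and the 3 inhibitor arrays (orange), by cluster and by paralog group on the horizontal axis. Dashed and dotted lines mark the median (5.77) and the upper quartile (7.49) of all genes in control arrays, and HOXB6 and HOXB9 are the members near or above the upper line in both groups.

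The HOXB cluster held both of the brightest members. HOXB9, a posterior-group factor studied in several carcinomas, read 7.83, 7.91 and 7.998 in the control arrays and 7.71, 7.80 and 7.83 in the inhibitor arrays. Each inhibitor array was under each control array, but by little, with a difference of -0.13 (SE 0.090, n = 3 each, 95% interval -0.34 to 0.073) and an adjusted p of 0.81 in limma. HOXB6, a central-group factor, read 7.67, 7.61 and 7.65 in control and 7.70, 7.50 and 7.33 in inhibitor arrays. Inhibitor replicate 1 was the highest of the 6 arrays and inhibitor replicate 3 the lowest, so the groups overlapped, and the difference was -0.14 (SE 0.11, adjusted p 0.83 in limma). It was -0.23 without inhibitor replicate 1 and -0.047 without inhibitor replicate 3. The neighbours between them were dim in all arrays. HOXB7 was at 3.30 ± 0.27 without the inhibitor and 3.52 ± 0.078 with it (SD, n = 3 each), and none of its 4 probe sets reached the median of all probe sets (6.18). HOXB8 read 4.34, 4.35 and 4.68 in control and 4.55, 4.77 and 4.67 in inhibitor arrays. Its groups overlapped through control replicate 3, and the difference was 0.21 (SE 0.12, adjusted p 0.79 in limma). On the far side, HOXB13, the most posterior member of the cluster and a known prostate and hindgut factor, had 5.24 ± 0.18 (SD, n = 3) in control arrays, above HOXB5 at 5.12 and HOXB4 at 5.00 by less than the spread of these genes. The anterior members HOXB1, HOXB2 and HOXB3, which pattern the hindbrain, had control means of 4.31, 3.02 and 3.999.

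In the HOXC cluster the most posterior gene was the brightest. HOXC13, a factor known for hair and nail keratin genes, read 6.04, 6.18 and 6.17 in control and 6.07, 6.11 and 5.997 in inhibitor arrays. The groups overlapped, with a difference of -0.073 (SE 0.088). HOXC4, at the other end, read 5.31, 5.52 and 5.42 in control and 5.51, 5.47 and 5.58 in inhibitor arrays, also overlapping, with a difference of 0.10 (SE 0.092). Between these ends control means declined from HOXC5 (5.10) and HOXC6 (4.96) through HOXC8 (4.66) and HOXC9 (4.33) to HOXC10 (3.26) and HOXC11 (3.35), and then increased at HOXC12 (4.75). HOXC10 and HOXC11 differed by less than the spread of the arrays.

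HOXC4 and HOXC5 are listed with the same start site, so their promoter window, 300 bases that end just after the start, is a single sequence. It is shown because some probe sets of the array also name these genes together. RefSeq gives it on GRCh38.p14 at chr12:54016638-54016937 on the plus strand, and capitals mark its 15 CG pairs.
HOXC4 and HOXC5: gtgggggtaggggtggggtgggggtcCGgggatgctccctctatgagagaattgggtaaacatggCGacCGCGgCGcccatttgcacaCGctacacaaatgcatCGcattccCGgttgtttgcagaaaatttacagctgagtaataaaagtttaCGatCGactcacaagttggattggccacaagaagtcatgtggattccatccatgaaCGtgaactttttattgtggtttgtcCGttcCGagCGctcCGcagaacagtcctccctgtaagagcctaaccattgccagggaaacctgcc
On the array 2 probe sets name HOXC5, HOXC4 and HOXC6 together and were kept out of the gene values. Both were dim, at 4.65 and 1.54 in control and 4.42 and 1.28 in inhibitor arrays.

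HOXA and HOXD had no member above the median of all genes. HOXA9, a posterior-group factor best known from leukaemia, read 5.17, 4.71 and 4.80 in control and 5.08, 4.47 and 4.69 in inhibitor arrays. Replicate 1 was the highest array in each group, the groups overlapped, and the difference was -0.15 (SE 0.17, adjusted p 0.88 in limma). It was -1.15 with the median of its probe sets, -0.32 without inhibitor replicate 1 and -0.011 without inhibitor replicate 2. HOXA10, a regulator of uterine and blood development, is described with the smallest p-values below, at 4.87 in control arrays. HOXA7 (4.87) and HOXA3 (4.60) followed, then HOXA6 (4.32), HOXA13 (3.91), HOXA11 (3.50) and HOXA5 (3.40), and HOXA4 (2.66) and HOXA2 (2.84) were the dimmest of the cluster. In HOXD the brightest was the most anterior gene, HOXD1, which read 5.53, 5.32 and 5.27 in control and 5.40, 5.37 and 5.41 in inhibitor arrays. The inhibitor arrays fell inside the control range, with a difference of 0.019 (SE 0.096, 95% interval -0.20 to 0.24). HOXD9, a limb patterning factor, read 5.36, 4.79 and 5.02 in control and 4.91, 4.93 and 4.89 in inhibitor arrays, again inside the control range, with a difference of -0.15 (SE 0.14). HOXD4 (4.57), HOXD13 (4.41), HOXD8 (4.27), HOXD11 (4.20) and HOXD12 (3.36) followed in brightness. HOXD3 (2.55) and HOXD10 (2.79) were the dimmest of the cluster in control arrays, and HOXD3 was the dimmest of all 38 members.

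A gene's mean hid large differences between its probe sets. In control arrays the brightest and the dimmest probe set of a member differed by a median of 2.50, from 0.413 for HOXC5 to 10.1 for HOXA9. HOXA9 had 1 probe set at 11.07 and another at 1.01, and its other 5 lay below the median of all probe sets. HOXA7 likewise had 1 probe set at 8.10 and its other 2 at or below 3.37, and HOXD1 ran from 8.89 down to 2.05 over 8 probe sets. HOXB9 was more even, with 4 of 5 probe sets above 6.18 and the other at 5.99. HOXB6 had 3 of 4 above it, HOXC13 4 of 6 and HOXD1 4 of 8. Of the 158 HOX probe sets 27 (17.1%) were brighter than that median. They belonged to 14 members, and no member had every probe set above it. HOXB had 9 of these probe sets, HOXC 8, HOXA 5 and HOXD 5. The deposited values do not say which exon or strand a probe set reads, and antisense transcripts are known in these clusters.

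**Figure D2:**
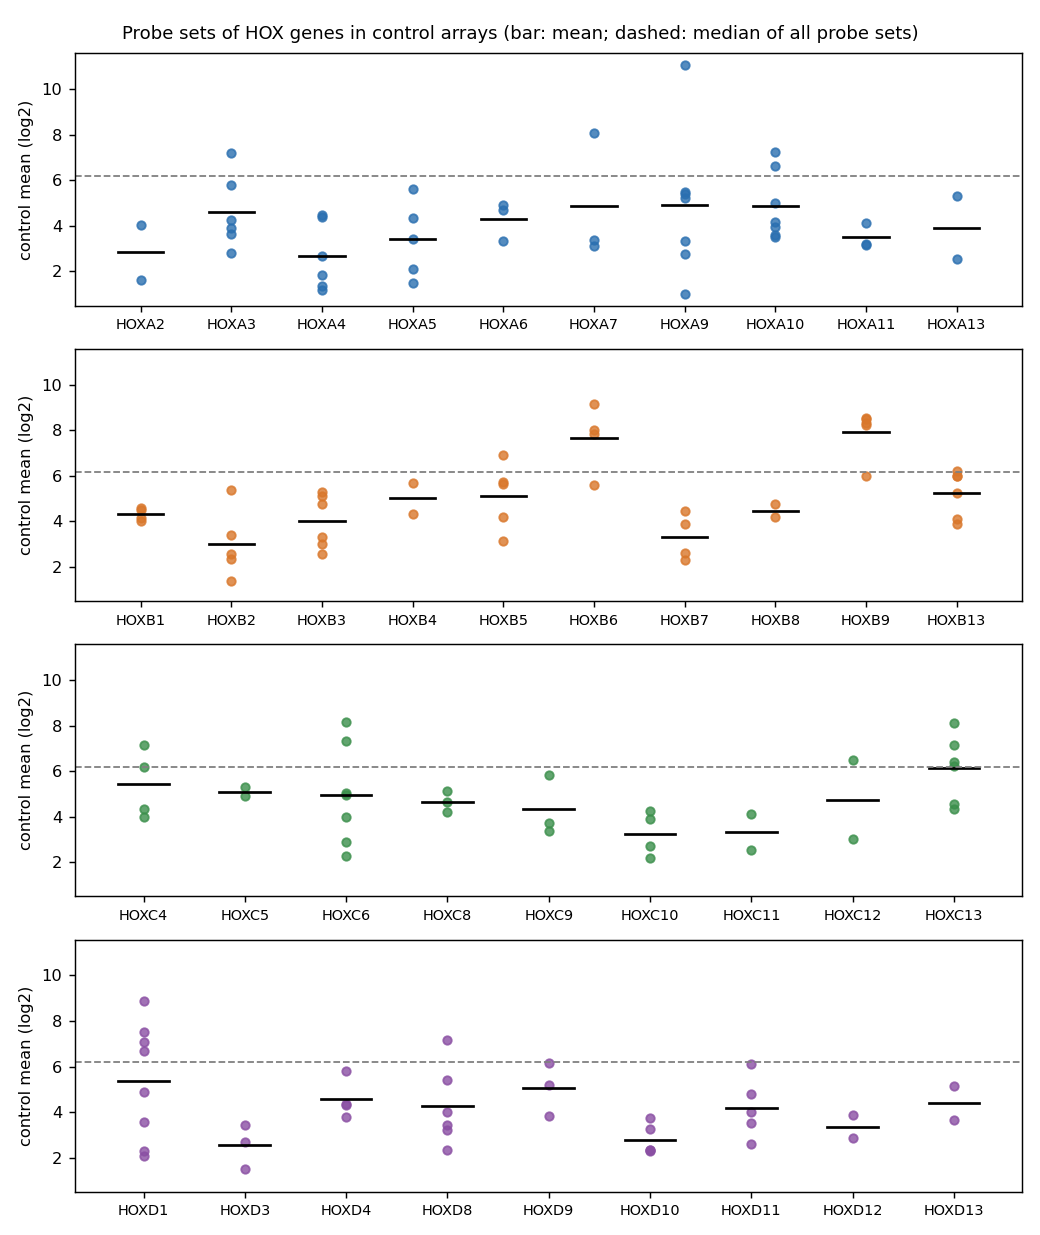
Mean log2 value over the 3 control arrays of each probe set (points) of every HOX gene, in 1 panel per cluster, with the gene's mean as a black bar and the median of all probe sets (6.18) as a dashed line. HOXB9, HOXB6 and HOXC13 have most points above the line, while HOXA9 and HOXA7 have 1 point each above it.

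Promoter sequence was not used in the choice by name. RefSeq's table held windows for 20 of the 38 members, 9 in HOXA, 8 in HOXD, 2 in HOXC and 1 in HOXB, with 26 distinct windows of 300 bases. The median HOX window had 22.5 CG pairs against 14 over 34943 windows of all genes, at a similar G and C content of 58.0% and 58.7%. Of the HOX windows 7 lay below 14 pairs, and the range was wide, from 44 pairs at HOXA13 to 0 at 1 of the 7 windows of HOXA3, and HOXD4 had 4. The TATA motif, TATAAA on either strand, was found in 5 HOX windows (19.2%) and in 11.6% of all windows, with HOXA9, HOXA10 (both windows), HOXA3 and HOXD13 holding it. Windows of the same gene and of neighbouring genes are not independent.

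Across the members, 16 had a positive and 22 a negative difference, inhibitor minus control, and limma called 0 of 38 at an adjusted p of 0.05 (0% of all 18656 genes called). The smallest adjusted p among members was 0.79. At an unadjusted p under 0.05 there were 4 members (10.5%), against 6.12% of all genes, with 1 higher in inhibitor arrays (background 2.95%) and 3 lower (background 3.16%). The inhibitor arrays lay wholly apart from the control arrays for 3 members, all lower, namely HOXA10, HOXB9 and HOXC9 (7.89% of members, against 12.9% of all genes in either direction, 7.68% lower and 5.19% higher). The median difference was -0.043 over the members and 0.0021 over all genes. By cluster it was -0.061 in HOXA, -0.076 in HOXB, -0.068 in HOXC and 0.018 in HOXD. Anterior members (groups 1 to 3) had a median of -0.0094 with 3 of 7 positive, central members (groups 4 to 8) 0.0017 with 8 of 15 positive, and posterior members (groups 9 to 13) -0.10 with 5 of 16 positive. No test was made between these sets.

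Replicate spread sets what could be seen. The median standard error was 0.11 for HOX members and 0.11 for all genes. The 95% interval of every member lay within 1 log2 unit of 0, and that of 29 of 38 within 0.5. The intervals reached furthest for HOXD4, down to -0.75, and for HOXA5, up to 0.55. Apart from the 4 members with an unadjusted p under 0.05, differences ran from -0.25 for HOXA11 to 0.23 for HOXC8. With the mean of probe sets no member had a difference as large as 1.5-fold, which only 72 of all 18656 genes had. Some members passed it with other summaries of their probe sets, such as HOXA9 with the median (-1.15). On the brightest probe set alone HOXA11 had -1.03 and HOXD8 -0.84. Control replicate 1 was the array least like the others over all genes (mean correlation 0.9915, where each of the others had 0.9933 to 0.9938).

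**Figure D3:**
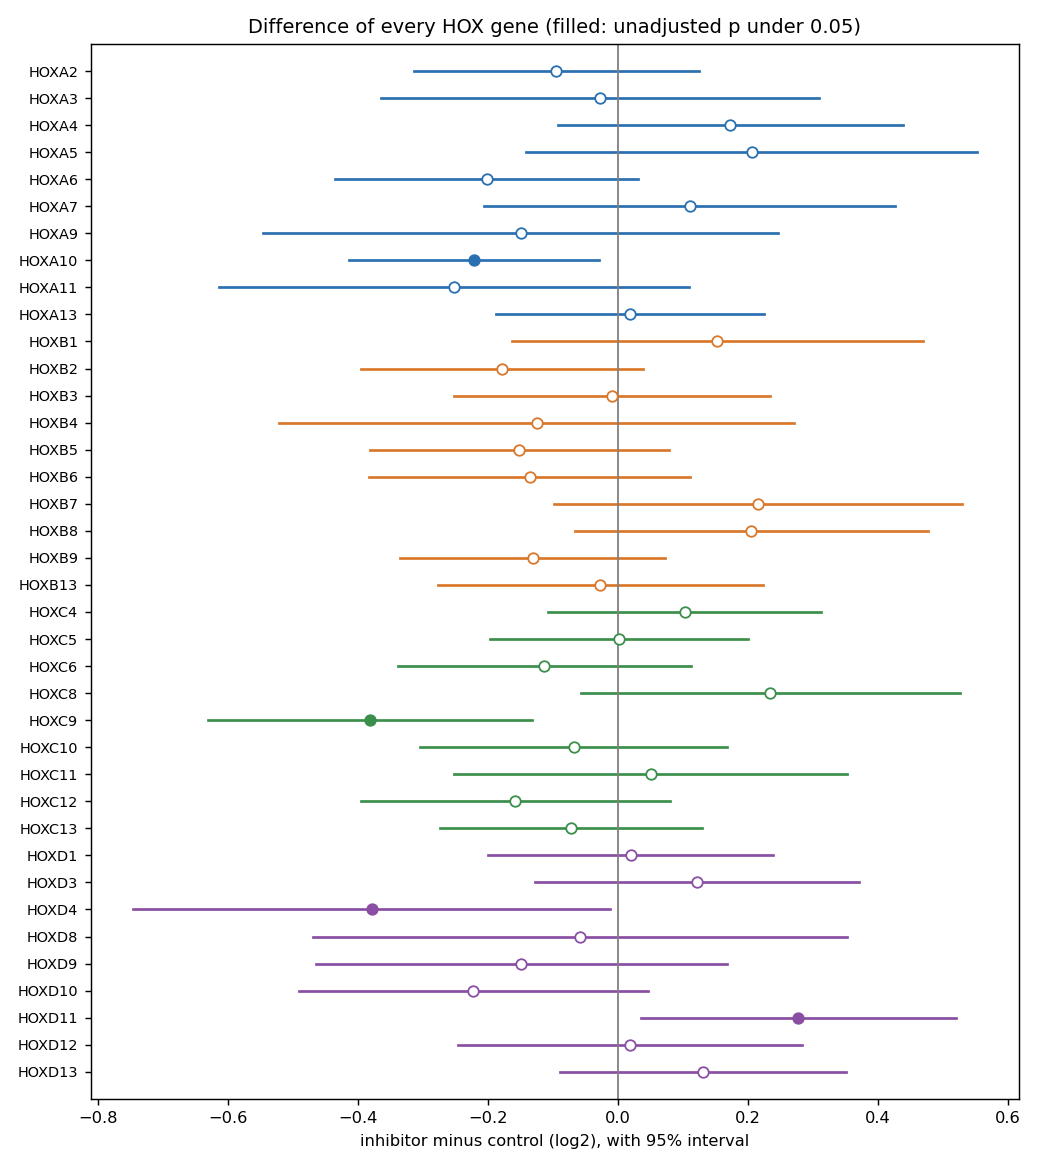
Difference of each HOX gene, inhibitor minus control on the log2 scale, with its 95% interval from limma (3 arrays a group) and colours for the 4 clusters. Filled points mark the 4 members with an unadjusted p under 0.05 (HOXA10, HOXC9, HOXD4 and HOXD11), and all 38 had an adjusted p of 0.79 or more.

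HOXC9, a posterior-group factor of trunk and motor neuron patterning, had the smallest p-value. It read 4.54, 4.21 and 4.23 in control and 3.94, 3.90 and 3.98 in inhibitor arrays. Every inhibitor array was below every control array and control replicate 1 was the highest. The difference was -0.38 (SE 0.11, unadjusted p 0.0073, adjusted p 0.79 in limma), and -0.28 without control replicate 1. All 3 probe sets were negative but unequal. Most of the difference came from 1 probe set that went from 3.74 to 2.88, while the brightest went from 5.85 to 5.78, so that the difference was -0.070 on the brightest.

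HOXD4, a central-group factor, and HOXA10 also had negative differences. HOXD4 read 4.76, 4.74 and 4.21 in control and 4.03, 4.16 and 4.38 in inhibitor arrays. Control replicate 3 lay among the inhibitor arrays, so the groups overlapped, and the difference was -0.38 (SE 0.16, unadjusted p 0.044, adjusted p 0.79 in limma) and -0.56 without that array. It rested on 1 of 4 probe sets, at 4.16, 4.56 and 2.67 in control and 1.73, 1.73 and 3.64 in inhibitor arrays, and was 0.058 once the dimmest 30% of all probe sets were left out. HOXA10 read 4.87, 4.91 and 4.84 in control and 4.72, 4.64 and 4.59 in inhibitor arrays. The groups did not overlap, and the difference was -0.22 (SE 0.085, unadjusted p 0.029, adjusted p 0.79 in limma). Only 3 of its 7 probe sets were negative, though, the brightest gave 0.0067, and the mean without dim probe sets gave 0.061.

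HOXD11, a posterior-group gene of limb and kidney patterning, was the only member with a positive difference at an unadjusted p under 0.05. It read 4.14, 4.33 and 4.13 in control and 4.50, 4.60 and 4.33 in inhibitor arrays. The lowest inhibitor array, replicate 3, fell just under control replicate 2, so the groups overlapped slightly. The difference was 0.28 (SE 0.11, 95% interval 0.035 to 0.52, unadjusted p 0.029, adjusted p 0.79 in limma). All 5 probe sets were positive, from 0.23 to 0.43, and the brightest, at 6.09 in control arrays, gave 0.26. HOXD11 had no probe set above the median of all probe sets. Every probe set was positive in 4 members (HOXB8, HOXC11, HOXD11 and HOXD13) and negative in 5 (HOXB2, HOXB5, HOXB6, HOXC9 and HOXC12), and the other 29 were mixed or held a probe set with no difference. HOXC8, a central-group factor next in line by p on the positive side, read 4.48, 4.72 and 4.78 in control and 5.12, 4.82 and 4.74 in inhibitor arrays. Inhibitor replicate 1 stood above the other 5, the groups overlapped, and the difference was 0.23 (SE 0.13), or 0.12 without that array.

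The promoter window of HOXD11 is shown because all 5 probe sets of the gene were positive and because the window held both homeodomain motifs that were searched. RefSeq gives it on GRCh38.p14 at chr2:176107030-176107329 on the plus strand. Capitals mark TAATTA, a core that homeodomains bind, and TGATNNAT, the joint PBX and HOX motif, here read on the opposite strand.
HOXD11: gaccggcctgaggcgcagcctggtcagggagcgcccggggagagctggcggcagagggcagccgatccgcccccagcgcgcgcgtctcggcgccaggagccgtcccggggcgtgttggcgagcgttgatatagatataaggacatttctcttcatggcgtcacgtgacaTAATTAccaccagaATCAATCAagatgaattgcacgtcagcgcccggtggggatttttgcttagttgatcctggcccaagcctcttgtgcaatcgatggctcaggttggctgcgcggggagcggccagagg
TAATTA was in 2 of 26 HOX windows (7.69%), at HOXD11 and HOXD3, and in 4.85% of all windows. TGATNNAT, searched on both strands, was in 3 (11.5%), at HOXD11, HOXA2 and HOXB1, and in 7.42% of all windows. A match is a run of letters and not a bound site, and a link between motif and difference was not tested.

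**Figure D4:**
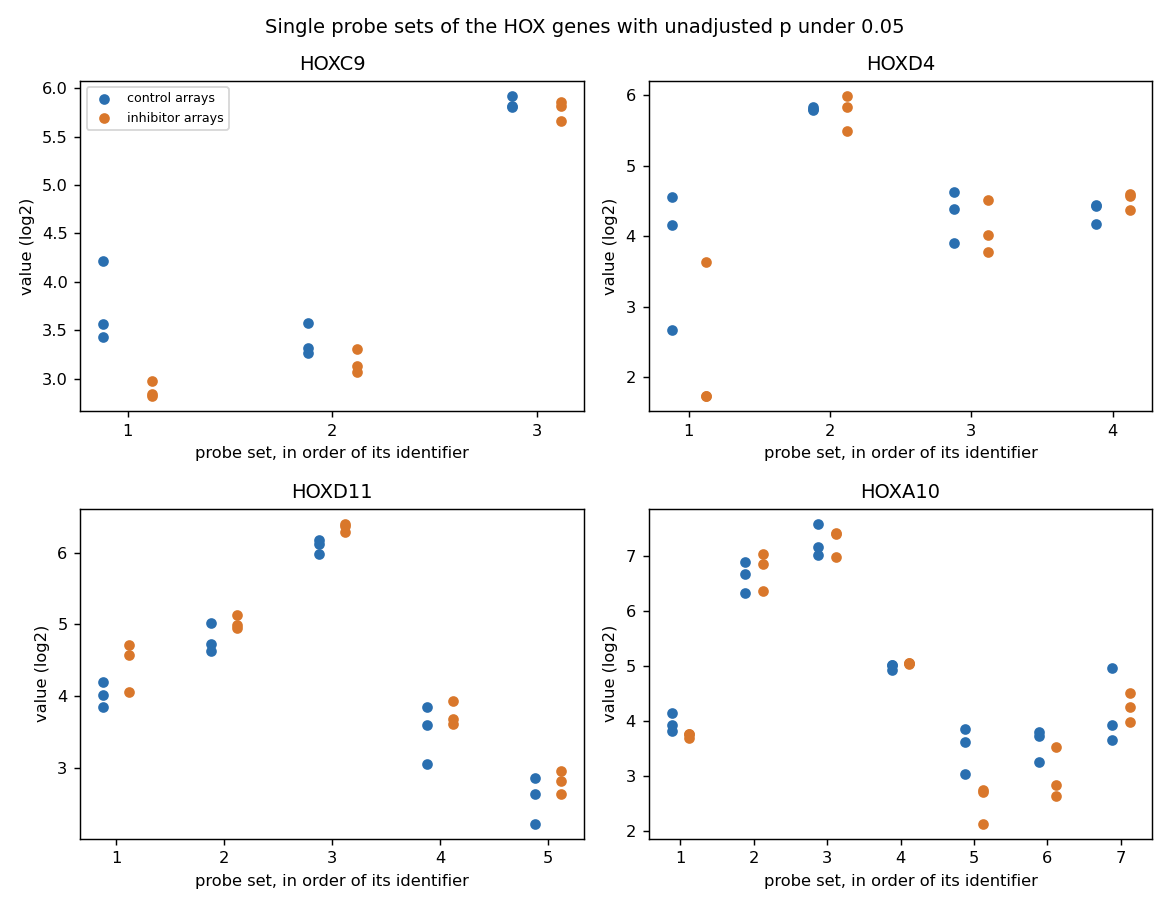
Log2 value of each probe set of HOXC9, HOXD4, HOXD11 and HOXA10 in the 3 control (blue) and 3 inhibitor (orange) arrays, with probe sets numbered in the order of their identifiers and a separate vertical scale per gene. The first probe set carries the difference in HOXC9 and HOXD4, the dim probe sets 5 and 6 carry it in HOXA10, and in HOXD11 all 5 are higher on average in inhibitor arrays.

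Fitted one by one, 0 of 158 HOX probe sets and 0 of 224320 probe sets in all were called by limma. At an unadjusted p under 0.05 there were 8 HOX probe sets (5.06%), all lower in inhibitor arrays, against 6.21% of all probe sets in either direction, 3.09% lower and 3.11% higher. They belonged to 8 different genes, HOXA6, HOXD8, HOXC9, HOXA10, HOXA3, HOXA2, HOXC6 and HOXA11. The smallest p was for a HOXA6 probe set that went from 4.93 to 3.96 (difference -0.97, SE 0.22, unadjusted p 0.0040, adjusted p 0.76 in limma). The brightest of them, in HOXC6 and HOXD8, went from 7.33 to 6.72 and from 7.17 to 6.33, while the other probe sets of HOXC6 and HOXD8 were of both signs. Over all 158 HOX probe sets 77 were positive, 79 negative and 2 exactly 0, with a median of -0.0016.

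Genes that act with, regulate or neighbour HOX genes also had no member called. Of the 68 companion genes 29 had a positive and 39 a negative difference, limma called 0 (0% of all genes), and 4 (5.88%) had an unadjusted p under 0.05 (PCGF2, CBX8, RBBP5 and RXRA), all lower in inhibitor arrays, against 6.12% of all genes in either direction and 3.16% lower. The median difference of the 68 was -0.010. The inhibitor arrays lay wholly apart from the control arrays for 11 of them (16.2%), against 12.9% of all genes. Of the 11, only SMUG1 was higher in inhibitor arrays and all the others were lower. Over all genes 7.68% were apart and lower, and 5.19% apart and higher. PBX2, CDX2, PCGF2, CBX8, RBBP5, RXRA and RARG were among the lower ones.

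TALE partners had 8 measured members, 2 positive and 6 negative, 0 called and a median of -0.051. PBX2 went from 8.15 ± 0.048 to 8.05 ± 0.069 (SD, n = 3 each), and MEIS1 from 4.45 to 4.28 with a difference of -0.17 (SE 0.13). PKNOX2 had 0.077 (SE 0.11) and PBX4 0.037 (SE 0.090). Homeobox genes of the ParaHox group and the EVX genes, which flank HOXA and HOXD, had 4 of 8 positive, 0 called and a median of 0.022. CDX2, the intestinal master regulator, was bright, at 9.30 ± 0.052 in control and 9.14 ± 0.073 in inhibitor arrays (SD, n = 3 each), with a difference of -0.16 (SE 0.087, adjusted p 0.79 in limma) and no overlap of arrays. PDX1, a pancreatic and antral factor, had -0.16 (SE 0.11), CDX1 0.17 (SE 0.14) and GSX2 0.15 (SE 0.12).

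Polycomb genes, which silence HOX loci, had 5 of 14 positive, 0 called and a median of -0.0084. PCGF2, a subunit of Polycomb repressive complex 1 also called MEL18, was at 7.34 ± 0.13 in control and 7.06 ± 0.055 in inhibitor arrays (SD, n = 3 each), which is -0.28 (SE 0.097, unadjusted p 0.019, adjusted p 0.79 in limma) with no overlap of arrays. CBX8, a reader subunit of that complex, had -0.22 (SE 0.087), against 0.14 (SE 0.095) for SUZ12 and 0.15 (SE 0.10) for CBX2. Trithorax genes and other activators had 4 of 11 positive, 0 called and a median of -0.095. RBBP5, a core subunit of the histone H3 methyltransferase complexes, had -0.23 (SE 0.098) and the menin gene MEN1 -0.19 (SE 0.097), while the demethylase KDM6A had 0.19 (SE 0.11) and PSIP1 0.083 (SE 0.11).

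Genes of the retinoic acid axis had 9 of 16 positive, 0 called and a median of 0.054. The nuclear receptor RXRA was at 7.44 ± 0.14 in control and 7.20 ± 0.017 in inhibitor arrays (SD, n = 3 each), which is -0.23 (SE 0.097), and RARG had -0.17 (SE 0.096). The dim receptor RXRG had 0.21 (SE 0.11) and the binding protein CRABP1 0.20 (SE 0.10). Genes that flank the 4 clusters had 6 of 13 positive, 0 called and a median of -0.0053. SMUG1 and CALCOCO1 lie beside HOXC and had 0.18 (SE 0.083) and -0.088 (SE 0.088). SKAP2 beside HOXA had 0.18 (SE 0.14) and PRAC1 beside HOXB13 -0.18 (SE 0.14). The flanking genes had a median control level of 6.48, above every member of HOXA and HOXD.

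The line matched its labelled epithelial type in its keratins and not in all markers of the gastric epithelial list. In control arrays KRT8 was at 12.03, KRT18 at 10.6, EPCAM at 10.4, KRT19 at 9.69, CLDN4 at 8.51 and ELF3 at 8.46. CDH1 was at 6.10, near the median of all genes (5.77). The stomach markers GKN1 and CLDN18 were dim at 2.57 and 4.21, and TFF1 was at 7.01. Markers of other cell types had median control levels of 4.33 for fibroblasts, 4.25 for leukocytes, 3.61 for endothelium and 4.46 for neurons, with exceptions such as LYZ at 8.84 and TUBB3 at 9.48. None of these markers was called.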

How the data were processed

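The authors deposited log2 expression values per probe set for 6 arrays (3 control, 3 inhibitor; Affymetrix microarray, exon-sized probe sets), to 2 decimals. RMA and the Affymetrix programs Transcriptome Analysis Console and Expression Console are listed in the submitters' processing notes, with no version. RMA makes the arrays' distributions alike, which hides a shift common to most genes. Symbols came from the platform annotation (224320 of 257430 with 1 symbol, 10159 with several, 22951 unnamed here), and old symbols were updated through RefSeq's GRCh38.p14 table. A gene's value is the mean of its probe sets' log2 values. limma 3.58.1 (R 4.3.3, lmFit, eBayes) compared the groups over all 18656 genes, with no filter or replicate block and Benjamini-Hochberg adjustment at 0.05. It was tested on data simulated under its own assumptions, so that test says nothing about whether these data meet them. Intervals are unadjusted 95% intervals. P-values weigh each difference against the spread between these samples, with each gene's spread drawn toward that of all genes. Having 3 arrays a group limits the precision.

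Values per array are given for the 2 brightest members of each cluster, for members at an unadjusted p under 0.05 and, where fewer than 3 in a direction reach it, for the 3 lowest p-values of that direction. Up to 2 members in each direction are named for each companion list. Other probe sets and HOXB7 were named after their values were seen. Members and lists were chosen with earlier results of these data known. The array numbers were not taken to pair the samples. The build behind the probe sets is not given in the sources used here.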

Additional observations from a re-analysis of the deposited data

How the results depend on the processing

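Over 17 alternative fits limma called 0 HOX members and 0 companion genes in each, and 0 genes in all but 1, which gave 1 gene without control replicate 3 (0 to 1 when 1 array was left out). The rule of an unadjusted p under 0.05 gave 1141 genes, 4 HOX members and 4 companion genes. The replicate block called 0 genes and changed no call. Same-numbered arrays deviated from their group means with correlations of -0.032, -0.040 and 0.17 over genes, while the highest correlation, 0.21, joined control 1 to inhibitor 2. HOX members at an unadjusted p under 0.05 numbered 3 with the block, beside 6.22% of all genes. When 1 array was left out they numbered 2 to 5, beside 4.59% to 6.81% of all genes. The 2 came without inhibitor replicate 2, of 4 with all arrays. A variance trend gave 2 (6.65% of all genes) and array weights 6 (9.05%). Quantile normalization, the median of probe sets and the brightest probe set gave 5 each, beside 6.51%, 5.88% and 6.24% of all genes. The median difference of HOX members ran from -0.060 to -0.0042 when 1 array was left out. It was -0.13 over the 3 members that remain without the dimmest 50% of genes.

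Of 13 members with values per array, 8 kept their sign under each alternative that could be run on them. HOXC9 and HOXD11 have no value without the dimmest 30% or 50% of genes. Of the 13, only HOXB6, HOXB9 and HOXC13 have a value without the dimmest 50%. HOXA9 kept its sign but moved from -0.15 to -1.15 with the median of probe sets. The brightest probe set turned HOXA10 to 0.0067, HOXC4 to -0.010 and HOXD9 to 0.027. Without the dimmest 30% of probe sets HOXA10 was 0.061, HOXD1 -0.10 and HOXD4 0.058, and the median of probe sets gave HOXD1 -0.26. Leaving out arrays gave -0.033 to 0.096 for HOXD1 and -0.28 to 0.0028 for HOXD9. The cause was not tested. Dim probe sets limit what can be said of most HOX genes.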
